A study of Homo sapiens with 6 samples.

Results

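The p53 target panel is a set of 37 human genes that the transcription factor p53 is known to activate or that act on p53. It was chosen by gene name and not from measured values, but with earlier results of these data known. All 37 had a row in the deposited expression table of 57688 rows, and 33 had a mean of at least 1 FPKM (reads scaled by gene length and by the reads of the library) over the 6 libraries. The other 4, TIGAR, TNFRSF10C, CMBL and SPATA18, lay under that level. The gene that encodes p53 is not on the panel and is not analysed here. The cells were WM3248, an established human line from a primary melanoma, in 2 groups of 3 libraries each. The siNC group received a commercial negative control siRNA (AllStars) and the siPGC1a group an siRNA against PPARGC1A, the gene for the transcriptional coactivator PGC1-alpha. Both siRNAs were given at 30 nM with a lipid reagent, and RNA was taken at 48 h. Each group used 1 siRNA, so loss of PPARGC1A and any other effect of that siRNA cannot be told apart. Whether replicate libraries are separate cultures is not stated in the labels. The p-values therefore reflect the spread between these libraries alone, which may be technical.

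p53 is held at a low level in unstressed cells by MDM2, a ubiquitin ligase that marks it for degradation, and by the related protein MDM4. DNA damage, ribosomal stress, oncogene activity and other stresses release p53, which then binds paired copies of a short DNA motif near its target genes. The targets halt the cell cycle, repair DNA, adjust metabolism and promote or restrain cell death, and some of them feed back to shut p53 off. In melanoma the pathway is often restrained by MDM2, MDM4 or loss of the ARF protein.

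The p53 motif was searched in the promoters of the panel because the genes were chosen as targets of this factor. RefSeq promoter windows (GRCh38.p14, 250 bases before to 50 after a start) were matched by symbol for 30 of the 37 genes, and ASCC3, CMBL, GADD45A, PHLDA3, RRM2B, TNFRSF10C and TP53INP1 were unmatched. A p53 element was taken as 2 copies of the 10-base p53 consensus unit, 0 to 13 bases apart, with the C and G of each core kept and at most 2 mismatches over the 20 positions. The unit is its own reverse complement, so both strands were covered. Such an element lay in a window of 5 of the 30 genes (16.7%), MDM2, DDB2, AEN, FDXR and ABHD4, and in 3.62% of the 27305 genes with a window. By outcome these were 4 of 17 genes that rose, 1 of 2 that fell and 0 of 9 that did not pass the test given below. Over all tested genes with a window the shares were 3.0% of those that rose, 3.8% of those that fell and 3.6% of the others. A match is a description of the letters and no site of binding, and sites outside these windows were not searched. The expression table uses the hg19 build and the windows GRCh38.p14, so the 2 were joined by symbol and not by position. The DDB2 window with an element held 3 overlapping matches, of which the one with the fewest mismatches is shown. One element for each of the 5 genes reads as follows, 5′ to 3′ on the strand of the gene, with the 2 units in capitals and the bases between them in lower case.
MDM2: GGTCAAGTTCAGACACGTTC
DDB2: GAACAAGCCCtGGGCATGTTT
AEN: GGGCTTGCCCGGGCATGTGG
FDXR: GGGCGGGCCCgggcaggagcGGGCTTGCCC
ABHD4: GGGCTCGCCAggacctggcaAGGCTTGTTT

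The DDB2 element shown had 0 mismatches and started at position 6 after the start site, and those of MDM2, AEN, FDXR and ABHD4 had 2. MDM2 has 4 start sites on record, and its element lay in the windows of the third and the fourth, starting at positions -94 and -101. DDB2 and FDXR each also had a window at another start without an element. Gene-level values cannot tell the starts of a gene apart. The AEN element started at position -34. The promoters of MDM2 and DDB2, with an element, are shown whole. So are those of GDF15 and BTG2, the largest rise and the largest fall of the panel, without one by this rule. Sites with more than 2 mismatches were not counted, so these windows may hold weaker sites. Capitals again mark the 2 units of the element shown above.
MDM2, chr12:68808767-68809066, plus strand: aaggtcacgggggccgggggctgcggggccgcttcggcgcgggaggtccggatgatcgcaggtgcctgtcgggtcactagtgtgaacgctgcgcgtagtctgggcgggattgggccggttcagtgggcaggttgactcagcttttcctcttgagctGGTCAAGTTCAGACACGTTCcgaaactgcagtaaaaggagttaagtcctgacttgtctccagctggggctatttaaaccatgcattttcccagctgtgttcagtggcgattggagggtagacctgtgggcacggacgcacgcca
DDB2, chr11:47214724-47215023, plus strand: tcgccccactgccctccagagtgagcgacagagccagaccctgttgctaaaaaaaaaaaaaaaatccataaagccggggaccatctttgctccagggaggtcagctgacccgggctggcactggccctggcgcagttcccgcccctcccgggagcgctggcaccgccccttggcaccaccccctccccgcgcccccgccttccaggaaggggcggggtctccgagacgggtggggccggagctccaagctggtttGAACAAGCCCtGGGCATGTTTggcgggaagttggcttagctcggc
GDF15, chr19:18385908-18386207, plus strand: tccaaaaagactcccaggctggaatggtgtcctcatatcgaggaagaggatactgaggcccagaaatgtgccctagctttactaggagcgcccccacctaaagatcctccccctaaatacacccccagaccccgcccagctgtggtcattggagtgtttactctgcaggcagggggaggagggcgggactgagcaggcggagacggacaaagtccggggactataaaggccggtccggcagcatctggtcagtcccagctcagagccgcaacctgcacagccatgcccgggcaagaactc
BTG2, chr1:203305269-203305568, plus strand: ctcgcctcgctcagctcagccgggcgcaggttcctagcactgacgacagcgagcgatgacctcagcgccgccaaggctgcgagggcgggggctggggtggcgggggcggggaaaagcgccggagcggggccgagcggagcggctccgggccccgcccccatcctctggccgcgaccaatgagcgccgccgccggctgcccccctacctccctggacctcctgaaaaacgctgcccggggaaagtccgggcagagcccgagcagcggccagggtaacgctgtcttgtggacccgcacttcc

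The siRNA lowered its target. PPARGC1A stood at 0.932, 1.04 and 0.947 FPKM in siNC and at 0.4, 0.354 and 0.413 FPKM in siPGC1a, with no overlap (limma adjusted p = 0.000234). Depth, recovered from the steps of short RNA genes, was 25040000 to 26600000 reads per library. Of the melanocyte markers SOX10 (246.3 FPKM in siNC), S100B (801.9 FPKM) and DCT (393.9 FPKM) were abundant, whereas MLANA, TYR and TYRP1 stood between 1.08 and 1.86 FPKM in siNC. PMEL (5.29 FPKM) and MITF (7.24 FPKM) lay between these levels in siNC.

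Most of the measured p53 targets were higher in siPGC1a. Of the 33 genes 20 rose, 2 fell and 11 did not pass the test, which was limma on log2(FPKM + 1) with Benjamini-Hochberg adjustment over 12020 genes and a threshold of 0.05. Across all genes tested 48.1% passed, 25.6% as higher and 22.5% as lower. The median log2 fold change (siPGC1a minus siNC) was 0.24 over the 33 genes and 0.01 over all genes tested, where the + 1 understates changes of low genes. The libraries of the 2 groups did not overlap for 21 panel genes, 19 with siPGC1a above and 2 with it below, against 57.2% of all genes, 29.8% above and 27.4% below. The changes were mostly small. In mean FPKM 7 of the 33 were at least 1.5-fold higher, against 2.45% of all genes tested, and 1, BTG2, was lower by that factor, against 3.61%. The summed FPKM of the 37 genes was 713.4 to 725.8 in the siNC libraries and 849.4 to 888.4 in the siPGC1a libraries. GDF15 (means of 48.4 and 110.7 FPKM in siNC and siPGC1a) and CDKN1A (168.3 and 199.2 FPKM) had the largest differences within this sum. FPKM are relative to all reads of a library, so RNA per cell, and a change in the make-up of the culture, cannot be told apart from a change within each cell.

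**Figure D1:**
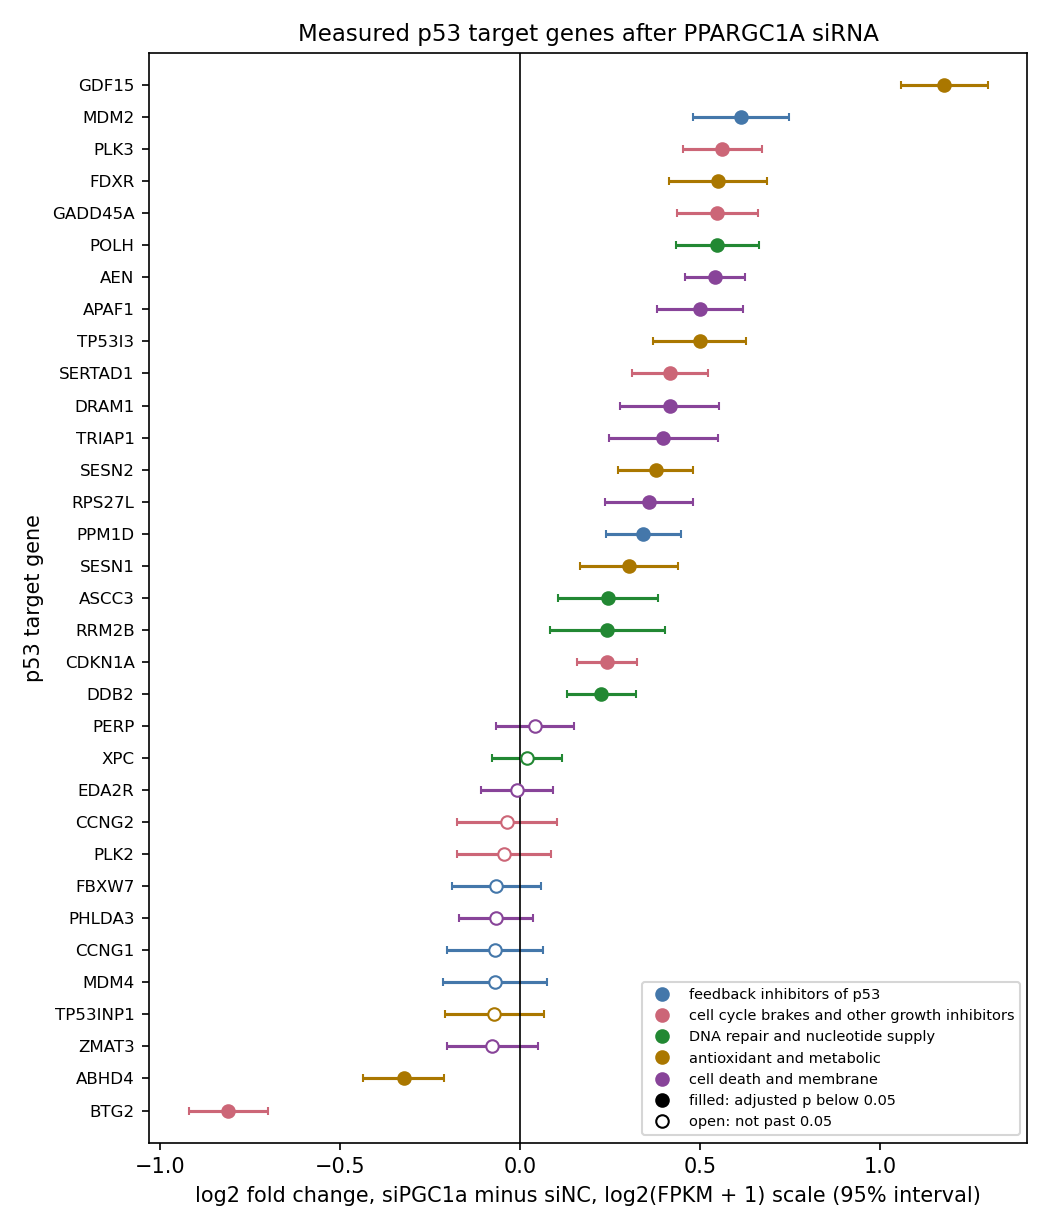
Log2 fold change (siPGC1a minus siNC, log2(FPKM + 1) scale, horizontal axis) of the 33 measured p53 target genes with its 95% interval from limma, coloured by role. Filled points passed an adjusted p of 0.05. 20 filled points lie right of 0, from DDB2 at 0.23 to GDF15 at 1.18, and 2 lie left of it, ABHD4 at -0.32 and BTG2 at -0.81.

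Among the genes that restrain p53, MDM2 and PPM1D rose and MDM4, CCNG1 and FBXW7 did not pass. MDM2 stood at 12.5, 11.5 and 11.6 FPKM in siNC and at 19.5, 17.0 and 19.6 FPKM in siPGC1a. Every siPGC1a library was above every siNC library, a 1.58-fold rise in the mean (log2 fold change 0.61, SE 0.060, limma adjusted p = 4.26e-05). MDM4, its relative that blocks the activating domain of p53, stood at 3.64, 3.24 and 3.23 FPKM in siNC and at 3.33, 2.85 and 3.32 FPKM in siPGC1a. These values overlapped (limma adjusted p = 0.406), and the 95% interval of the MDM4 log2 fold change ran from -0.21 to 0.08. Ratios of related genes within each library were added after these values were seen. The ratio of MDM2 to MDM4 was 3.44, 3.54 and 3.60 in siNC and 5.86, 5.98 and 5.90 in siPGC1a, a difference far larger than the spread within either group. An exact two-sided permutation test gave p = 0.1, the lowest value possible with 3 libraries a group, and 0.133 after adjustment over the 4 pairs of related genes compared. PPM1D, a phosphatase that removes activating marks from p53 and its kinases, went from 4.05 ± 0.140 to 5.40 ± 0.118 FPKM (SD, n = 3, limma adjusted p = 0.000293). CCNG1, a cyclin that recruits a phosphatase to MDM2, was among the most abundant of the panel at 100.7 ± 6.68 and 96.0 ± 6.39 FPKM (SD). FBXW7, a ubiquitin ligase subunit that marks growth-promoting proteins, was the lowest measured gene at 1.83 ± 0.084 and 1.71 ± 0.049 FPKM (SD), resting on about 467 to 567 reads.

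The genes of cell cycle and growth control went both ways. Of 7 such genes CDKN1A, GADD45A, PLK3 and SERTAD1 rose, BTG2 fell, and PLK2 and CCNG2 did not pass. Of all genes tested 25.6% rose and 22.5% fell. CDKN1A, which encodes p21, the inhibitor of cyclin-dependent kinases, was the most abundant gene of the panel. It stood at 163.1, 168.3 and 173.4 FPKM in siNC and at 194.6, 202.0 and 201.1 FPKM in siPGC1a. The groups did not overlap, and the rise in the mean was 1.18-fold (log2 fold change 0.24, SE 0.037, limma adjusted p = 0.000581). Among the 20 genes that rose only DDB2 had a smaller ratio of mean FPKM. GADD45A, a stress sensor that slows entry into mitosis, stood at 6.78, 6.88 and 7.65 FPKM in siNC and at 10.7, 10.8 and 10.97 FPKM in siPGC1a, a 1.53-fold rise with no overlap (limma adjusted p = 3.21e-05). SERTAD1, which binds a G1 kinase and E2F partners, stood at 9.02, 9.45 and 9.70 FPKM and at 12.3, 12.9 and 13.4 FPKM, again without overlap (limma adjusted p = 0.000108).

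PLK3 and PLK2 are polo-like kinases of the stress response. PLK3 stood at 2.933, 2.889 and 2.902 FPKM in siNC and at 4.89, 4.91 and 4.53 FPKM in siPGC1a, a 1.64-fold rise (limma adjusted p = 2.4e-05) on about 254 to 433 reads per library. PLK2 was far more abundant and did not pass, at 30.0 ± 1.15 and 29.1 ± 2.41 FPKM (SD, n = 3, limma adjusted p = 0.55). Within libraries the ratio of PLK3 to PLK2 was 0.0951 to 0.101 in siNC and 0.142 to 0.177 in siPGC1a, with no overlap (exact permutation p = 0.1, 0.133 adjusted over the 4 pairs).

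BTG2, an antiproliferative adaptor of the mRNA deadenylation machinery, was the largest fall. Its level was 24.7, 23.7 and 24.6 FPKM in siNC and 14.4, 12.9 and 13.1 FPKM in siPGC1a. All 3 siPGC1a values lay under the lowest siNC value, and the mean was 0.553 of that in siNC (log2 fold change -0.81, SE 0.049, limma adjusted p = 3.34e-06). Of all genes tested 0.399% had a lower log2 fold change. CCNG2, an unconventional cyclin, stood at 6.56 ± 0.460 and 6.38 ± 0.453 FPKM (SD). The ratio of CCNG1 to CCNG2 was 15.27 to 15.49 in siNC and 14.87 to 15.18 in siPGC1a, which did not overlap either (exact permutation p = 0.1, 0.133 adjusted over the 4 pairs), with a fold of 0.981.

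**Figure D2:**
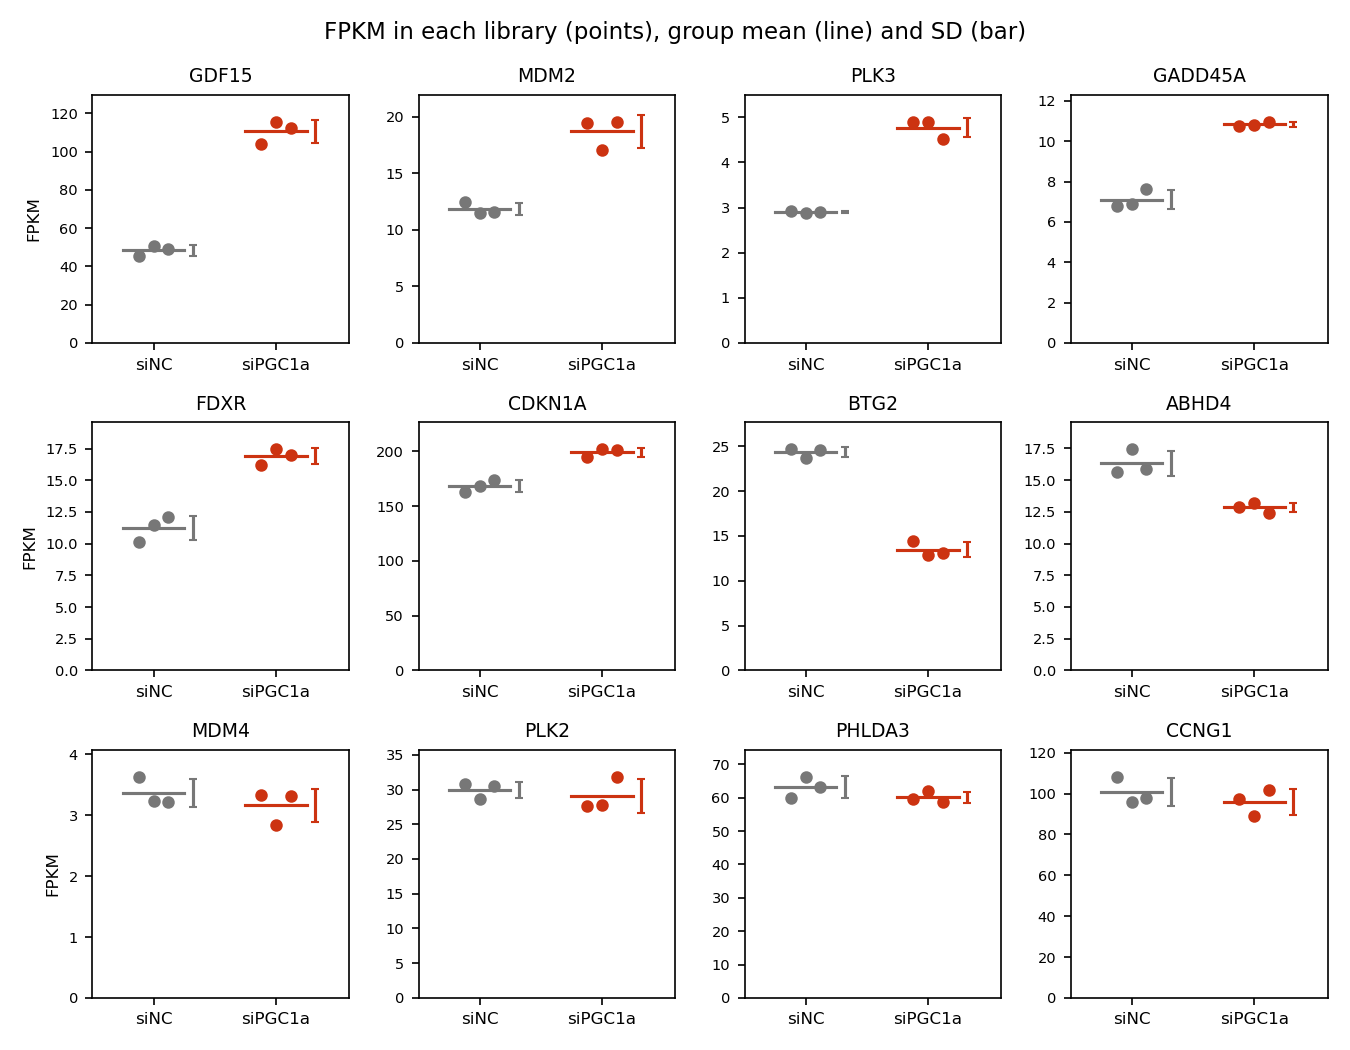
FPKM in each library of 12 p53 target genes (points), with the group mean (line) and SD (bar, n = 3), on axes that start at 0. GDF15, MDM2, PLK3, GADD45A, FDXR and CDKN1A lie higher in siPGC1a without overlap, BTG2 and ABHD4 lie lower without overlap, and MDM4, PLK2, PHLDA3 and CCNG1 overlap.

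Of the 5 genes for DNA repair and nucleotide supply 4 rose and XPC did not pass, where 25.6% of all genes tested rose. POLH, the polymerase that copies past ultraviolet lesions, stood at 7.15, 6.70 and 7.54 FPKM in siNC and at 11.2, 11.1 and 10.4 FPKM in siPGC1a. This was a 1.53-fold rise with no overlap (limma adjusted p = 3.65e-05). DDB2, which recognises ultraviolet damage, rose less, from 16.5 ± 0.50 to 19.5 ± 0.624 FPKM (SD, n = 3, 1.18-fold, limma adjusted p = 0.00204). A window of its promoters holds the element with 0 mismatches shown above. XPC, which acts with DDB2 in damage recognition, stood at 9.65 ± 0.23 and 9.79 ± 0.324 FPKM, with a 95% interval of -0.08 to 0.12 on the log2 scale. ASCC3, a helicase of DNA alkylation repair and ribosome quality control, was at 8.05 ± 0.658 and 9.71 ± 0.555 FPKM (SD, n = 3, limma adjusted p = 0.00919). RRM2B, the p53-induced subunit of ribonucleotide reductase, was at 23.8 ± 2.03 and 28.3 ± 2.36 FPKM (SD, n = 3, limma adjusted p = 0.0189). It was the only one of the 20 higher genes whose libraries overlapped, since siNC replicate 1 at 26.0 FPKM was above siPGC1a replicate 2 at 25.7 FPKM. The RRM2B call was lost without any one of siNC replicate 2, siNC replicate 3, siPGC1a replicate 1 or siPGC1a replicate 3 (limma adjusted p of 0.0547 to 0.0688).

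Genes of metabolism and stress signalling included the largest rise. GDF15, a secreted stress cytokine, stood at 45.3, 50.8 and 49.1 FPKM in siNC and at 104.1, 115.8 and 112.4 FPKM in siPGC1a. Each siPGC1a library held more than 2 times the FPKM of any siNC library, and the mean rose 2.29-fold (log2 fold change 1.18, SE 0.054, limma adjusted p = 7.18e-07), above 99.8% of all genes tested. FDXR, the mitochondrial reductase that feeds electrons to ferredoxins, stood at 10.2, 11.5 and 12.1 FPKM and at 16.2, 17.5 and 17.0 FPKM (1.504-fold, limma adjusted p = 9.33e-05). TP53I3, a quinone oxidoreductase, stood at 6.003, 6.90 and 6.76 FPKM and at 9.49, 10.2 and 9.33 FPKM (1.48-fold, limma adjusted p = 0.000119). Neither gene overlapped between groups.

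The sestrins SESN1 and SESN2, which restrain the growth kinase mTORC1, rose together. SESN1 went from 6.22 ± 0.371 to 7.92 ± 0.617 FPKM and SESN2 from 9.38 ± 0.296 to 12.5 ± 0.535 FPKM (SD, n = 3, limma adjusted p of 0.0027 and 0.000175). Their ratio within a library was 0.626 to 0.735 in siNC and 0.573 to 0.687 in siPGC1a, which overlapped (exact permutation p = 0.6). TP53INP1, a stress-induced nuclear protein with a part in autophagy, was at 6.12 ± 0.465 and 5.78 ± 0.374 FPKM (SD, n = 3, limma adjusted p = 0.365). ABHD4, a hydrolase of N-acyl phospholipids, was the other gene that fell. It stood at 15.6 to 17.4 FPKM in siNC and at 12.4 to 13.2 FPKM in siPGC1a, a mean ratio of 0.787 (limma adjusted p = 0.000653).

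**Figure D3:**
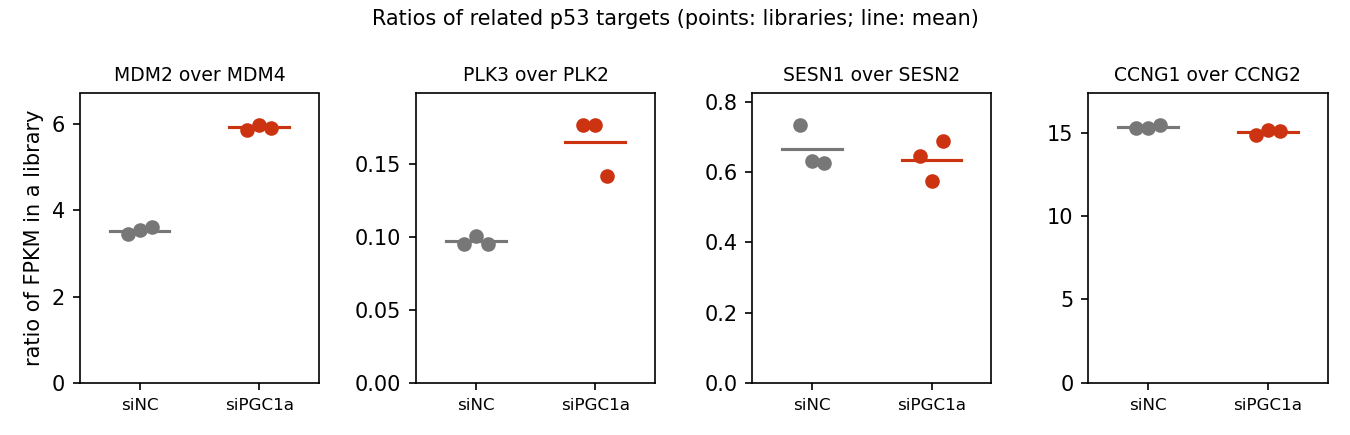
Ratio of FPKM of 4 pairs of related p53 targets within each library (points), with the group mean (line), on axes that start at 0. MDM2 over MDM4 and PLK3 over PLK2 are higher in all 3 siPGC1a libraries, SESN1 over SESN2 overlaps, and CCNG1 over CCNG2 is lower in all 3 siPGC1a libraries by a small margin, with means of 15.3 and 15.0.

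The genes of cell death and the cell membrane had 5 rises, AEN, APAF1, DRAM1, TRIAP1 and RPS27L, and no falls among 9 measured. Over all genes tested 25.6% rose and 22.5% fell. Each role holds few genes, and roles were not tested against each other. AEN, a nuclease that cuts DNA and RNA in dying cells, stood at 15.6, 16.1 and 15.8 FPKM in siNC and at 23.4, 23.4 and 23.7 FPKM in siPGC1a. The libraries of each group lay close together, and the mean rose 1.49-fold (limma adjusted p = 6.73e-06). APAF1, the scaffold of the apoptosome, stood at 3.94, 3.40 and 3.71 FPKM and at 5.60, 5.56 and 5.71 FPKM (1.53-fold, limma adjusted p = 7.59e-05). DRAM1, a lysosomal membrane protein that promotes autophagy, stood at 9.82, 9.65 and 10.2 FPKM and at 12.7, 12.9 and 15.0 FPKM (1.37-fold, limma adjusted p = 0.000476). A gene with the opposite role rose too. TRIAP1, which protects cells from apoptosis, went from 37.4 ± 2.40 to 49.7 ± 4.63 FPKM (SD, n = 3, limma adjusted p = 0.00108). RPS27L, a ribosomal protein variant that affects p53 stability, went from 17.4 ± 0.316 to 22.6 ± 1.76 FPKM (SD, n = 3, limma adjusted p = 0.000567). Reads of RPS27L may be shared with its close relative RPS27 and with pseudogenes, and its value is uncertain for that reason.

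The 4 others measured did not pass. PHLDA3, an inhibitor of AKT, was abundant at 63.1 ± 3.28 and 60.2 ± 1.63 FPKM (SD, n = 3, limma adjusted p = 0.254). ZMAT3, an RNA-binding zinc finger protein, was at 16.4 and 15.5 FPKM, PERP, a membrane protein of desmosomes, at 8.47 and 8.75 FPKM, and EDA2R, a receptor for ectodysplasin, at 7.60 and 7.55 FPKM in siNC and siPGC1a. The 11 genes that did not pass had log2 fold changes of -0.08 to 0.04, and no 95% interval among them reached below -0.21 or above 0.15. A p that misses the threshold does not show that these genes kept their level.

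The 4 genes under 1 FPKM were not in the test reported. TIGAR, a brake on glycolysis, was at 0.903 ± 0.093 and 0.820 ± 0.050 FPKM (SD). TNFRSF10C, a decoy receptor for the death ligand TRAIL, was at 0.891, 0.586 and 0.508 FPKM in siNC and 0.419, 0.404 and 0.226 FPKM in siPGC1a, on about 11 to 44 reads. Its groups did not overlap, and with no filter on low values it did not pass (limma adjusted p = 0.134). CMBL, a hydrolase, was at 0.016 FPKM or less, and SPATA18, a regulator of mitochondrial quality, was listed at 0 in all 6 libraries.

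The wider p53 pathway was described with lists of genes outside the panel, which were counted and not tested as sets. Other genes reported as p53-activated numbered 86, of which 67 were measured. Of these 23 rose (34.3%), 13 fell (19.4%) and 31 did not pass, against 25.6% higher and 22.5% lower over all genes tested. The median log2 fold change was 0.01, as over all genes tested. With a filter of at least 5 FPKM 17 of 47 of these genes were higher and 9 lower. At that filter 2519 of all 7272 genes tested were higher and 1607 lower, so the share that rose was larger than 25.6%. The largest rises were those of LIF, a cytokine of the IL6 family (14.4 to 32.3 FPKM), TNFRSF10B, the death receptor DR5 (54.7 to 86.6 FPKM), SAT1, a polyamine-degrading enzyme (72.6 to 111.4 FPKM), and PCNA, the sliding clamp of DNA replication (154.2 to 229.7 FPKM). The largest falls were those of SESN3, the remaining sestrin (29.1 to 17.2 FPKM), RHOC, a small GTPase (23.7 to 15.8 FPKM), MR1, which presents metabolites to T cells (3.95 to 2.45 FPKM), and ORAI3, a calcium channel subunit (12.5 to 8.50 FPKM). SESN3 fell where SESN1 and SESN2 rose.

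Regulators of p53 had 10 rises, 2 falls and 19 genes that did not pass among 31 measured. The 32.3% that rose compare with 25.6% of all genes tested and the 6.45% that fell with 22.5%, and the median log2 fold change was 0.04. The all-gene share that rose was larger with a filter of at least 5 FPKM (2519 of 7272), at which the regulators were not counted. CHEK2, a checkpoint kinase that phosphorylates p53, went from 7.64 to 10.4 FPKM, ZBTB7A, a repressor of ARF, from 6.75 to 8.91 FPKM, CHEK1 from 4.12 to 5.05 FPKM and NCL, nucleolin, from 113.5 to 133.0 FPKM. HIPK2, a kinase that activates p53, fell from 12.9 to 9.58 FPKM and TP53BP1, a scaffold of the damage response, from 7.49 to 6.69 FPKM. CDKN2A, which encodes ARF and the kinase inhibitor p16, was listed at 0 FPKM in all 6 libraries. It is named here after its values were seen.

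Cell cycle genes that are shut off through p21 and the DREAM repressor complex when p53 is active were mostly higher in siPGC1a. Of 36 measured, 23 rose, 1 fell and 12 did not pass. The 63.9% that rose compare with 25.6% of all genes tested and the 2.78% that fell with 22.5%, and the median log2 fold change was 0.18 against 0.01. The largest rises were those of CDC25A, a phosphatase that activates cyclin-dependent kinases (4.09 to 7.65 FPKM), RRM2, a subunit of ribonucleotide reductase (12.1 to 20.6 FPKM), E2F1, a driver of S phase (8.89 to 14.5 FPKM), and MCM5, part of the replicative helicase (11.6 to 18.1 FPKM). PLK4, the kinase of centriole duplication, was the 1 that fell, from 5.77 to 4.50 FPKM.

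**Figure D4:**
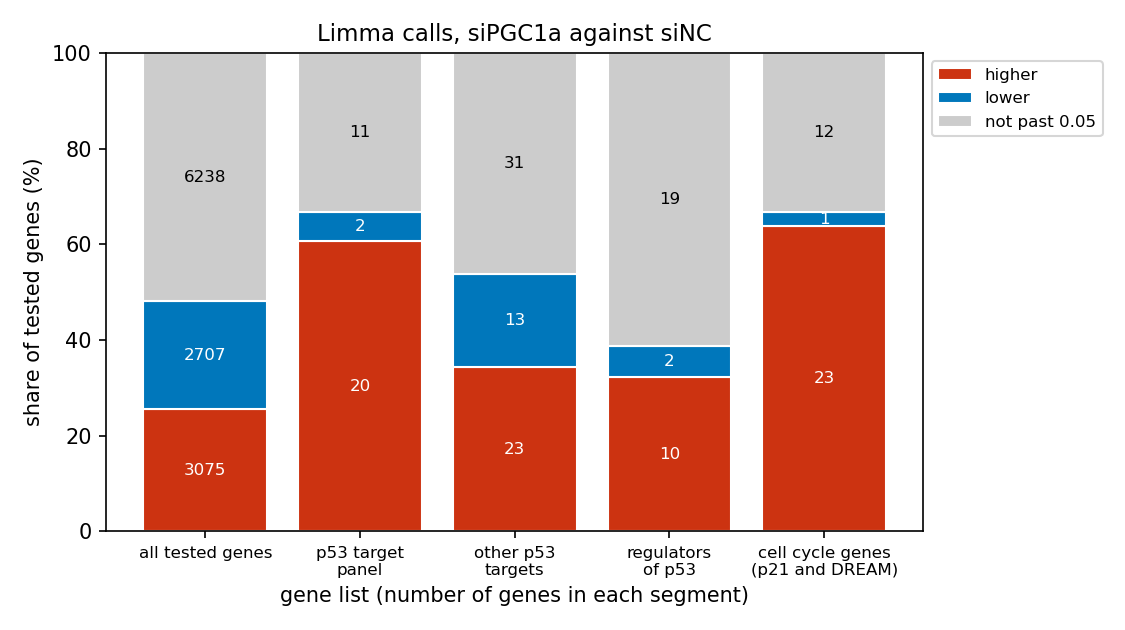
Share of the measured genes of each list that were higher, lower or not past an adjusted p of 0.05 (vertical axis, %; gene numbers in the segments). The p53 target panel (20 higher, 2 lower of 33) and the DREAM cell cycle genes (23 higher, 1 lower of 36) lean higher, and the other p53 targets (23 higher, 13 lower of 67) are mixed.

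Other markers moved with the groups. Over all genes tested 25.6% were higher and 22.5% lower. Of 7 measured melanocyte markers 1 rose (S100B) and 4 fell, the 8 listed summing to 1440 to 1480 FPKM in siNC and 1415 to 1424 FPKM in siPGC1a. Interferon response genes were lower in siPGC1a for 6 of the 7 measured. The list of 8 summed to 128.7 to 161.5 FPKM in siNC and 111.3 to 126.2 FPKM in siPGC1a. Most of that sum was IFI6 (89.7 to 126.2 FPKM in siNC, 79.5 to 90.4 FPKM in siPGC1a), whose groups overlapped. Fibroblast markers were lower for 4 of 4 measured, and the 6 listed summed to 17.0 to 17.7 FPKM and 11.2 to 12.8 FPKM. Immune markers summed to at most 2.49 FPKM and endothelial markers to at most 0.362 FPKM in any library, with PTPRC and KRT1 listed at 0. The endothelial sum covers 3 of the 4 markers listed, since PECAM1 had no row. Of 4 keratinocyte markers only KRT10 was measured (20.6 and 22.4 FPKM), and it did not pass. The part of these markers in the p53 target results was not tested.

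A 6-base word, ACACCT, was searched in the 3′ UTRs of the panel because an earlier analysis of these data had found it more often in genes that were lower in siPGC1a, so its presence is a description and no support. The longest annotated 3′ UTR of each gene (GENCODE v29) was read. The word was held by 48.6% of lower, 22.7% of higher and 32.8% of other tested genes with a 3′ UTR. In the panel both genes that fell held it, BTG2 at 2 places and ABHD4 at 1, as did 5 of the 20 that rose (AEN, CDKN1A, DRAM1, MDM2 and RPS27L) and 7 of the 11 that did not pass. The 3 places in the genes that fell read as follows, with the word in capitals and positions counted from the start of the 3′ UTR.
BTG2, position 440: ccccagccagACACCTgcatccctgg
BTG2, position 2125: ggacaaatgtACACCTttttgttact
ABHD4, position 412: ccatgcaagaACACCTtcctcctcca

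Overlap with genes on the other strand was small for the panel. MDM2 shared 133 exonic bases with CPM, which fell (log2 fold change -0.56). XPC shared 318 bases with LSM3 (6.63% of its exon length) and POLH 4 bases with GTPBP2, and both partners rose. No source used here states whether reads were counted by strand, so reads from these stretches cannot be assigned.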

How the data were processed

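Libraries were made from poly(A) RNA with a stranded kit and read as single reads of WM3248 cells, per the labels' protocols. The deposited values are FPKM, which the authors computed per gene and library; STAR, Picard, featureCounts, DESeq2 and hg19 appear without roles or versions per the submitters' processing notes. Values were taken as log2(FPKM + 1), and genes with a mean of at least 1 FPKM, with PPARGC1A regardless, were fitted by limma (version 3.58.1, R 4.3.3) with a mean-variance trend and no block on all 6 libraries, two-sided and adjusted over 12020 genes. The fit was tested on simulated data. Depth came from FPKM steps of miRNA and small nucleolar RNA genes with GENCODE v29 lengths: 83.2 to 88.6% of low values were whole within 0.1 read, against 20.0% by chance. Reads per gene use those lengths and are approximate. No 2 libraries of a group were copies (chi-square per degree of freedom of 2.17 to 7.17 within groups). The panel and lists were chosen with earlier results of these data known. Every panel gene is named, those of the 12 largest changes, MDM2, MDM4 and CDKN1A with each library, and of other lists up to 4 rises and 4 falls. Alternatives changed the pseudocount, filter, scaling, trend, weights, block and libraries.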

Additional observations from a re-analysis of the deposited data

How the results depend on the processing

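The panel's counts held under 14 alternatives: 17 to 20 genes were higher and 2 to 3 lower, the 17 from a filter of at least 5 FPKM that tested 28 of the 33. Without single libraries 19 to 20 were higher and 2 lower. Of the 22 calls 20 were kept in every alternative that tested the gene. ASCC3 was lost with no filter (limma adjusted p = 0.0555), and RRM2B in 6, among them no filter (0.109) and quantile normalization (0.0736). PHLDA3 passed as lower with quantile normalization (0.0351). Other p53 targets gave 17 to 23 higher and 9 to 16 lower. Over all genes, the filter of at least 5 FPKM left 2519 higher and 1607 lower genes of 7272 tested, against 3075 and 2707 of 12020. With that filter 61.1% of calls were higher, and the median log2 fold change of all genes was 0.05. Rescaling to a common sum gave 47.5% of calls as higher, against 53.2%. The median of all genes moved by less than 0.1. With the replicate number as a block 20 panel genes were higher and 2 lower, and 6079 genes passed in all; same-numbered libraries deviated together with r = 0.08, 0.26 and -0.06 over 12019 genes, so the numbers were not taken as pairs. Of the genes under the filter TNFRSF10C rests on about 11 to 44 reads per library and CMBL on 0 to 1, which limits what can be seen of them.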
